A study of Mus musculus with 14 samples.

Results

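The ligands and receptors of the TGF-beta pathway were followed by gene symbol through nuclei of mouse retina and of mouse brain vascular fragments. They are 8 genes, the ligands *Tgfb1*, *Tgfb2* and *Tgfb3* and the receptors *Tgfbr1*, *Tgfbr2*, *Tgfbr3*, *Acvrl1* and *Eng*, and all 8 are present among the 28316 genes of the retina and the 26528 genes of the brain. For each of them the unique molecular identifiers (UMIs, which count each captured transcript once) were summed over the nuclei of a cell type in a library and divided by all UMIs of those nuclei, which gives a level in CPM, counts scaled to a common total. The study used single-nucleus RNA sequencing (snRNAseq) to ask what happens around the vessels when endothelial cells (ECs) lose TGF-beta signaling. The CKO mice were *Cdh5CreER;Tgfbr1* CKO/-, with a Cre recombinase driven by the EC gene *Cdh5* (the labels name the same gene VEcad) and switched on with 4-hydroxytamoxifen (4HT) from postnatal day P3 to P5. In these mice Cre can delete the conditional *Tgfbr1* allele in ECs, while the null allele is carried by every cell. The control libraries are labeled WT. By the study's methods such controls were phenotypically wild type, and their alleles are not given library by library. The paper gives the age as P14 and the labels as young adult. Retinas contributed 1 control and 11 CKO libraries from an unstated number of mice each, and brain vascular fragments contributed 1 control and 1 CKO library, each pooled from 2 brains.

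TGF-beta ligands are secreted in a latent form, bound to their own propeptide and often to latent TGF-beta binding proteins of the matrix, and are released by integrins and other proteins. The active dimer binds TGFBR2, which recruits and phosphorylates the type I receptor TGFBR1, and TGFBR1 then phosphorylates SMAD2 and SMAD3. TGFBR3 (betaglycan) is a coreceptor that presents ligand, TGFB2 above all. In ECs a different type I receptor, ALK1 (gene *Acvrl1*), and the coreceptor endoglin (gene *Eng*) serve BMP9 and BMP10 and signal through SMAD1 and SMAD5. In the retina and brain the pathway is known for vessel stabilization and for the resting state of microglia.

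Promoters are shown for 3 genes with a RefSeq entry whose level differed between the brain libraries in ECs, *Eng* being lower and *Tgfbr2* and *Tgfb2* higher in the CKO library. None of the 3 differed past 2-fold. Each line is the 250 bases before the annotated start site, read 5′ to 3′ along the gene's strand, on the GRCm38.p6 build of RefSeq. Capitals mark CAGAC, a SMAD-binding element that SMAD3 and SMAD4 recognize, or its reverse complement GTCTG.
*Eng*, chr2:32646345-32646594, plus strand: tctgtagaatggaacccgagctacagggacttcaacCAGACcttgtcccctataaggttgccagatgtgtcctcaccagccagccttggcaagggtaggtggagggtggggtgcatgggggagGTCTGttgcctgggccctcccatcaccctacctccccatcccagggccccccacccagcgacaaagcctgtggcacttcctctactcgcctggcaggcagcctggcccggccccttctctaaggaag
*Tgfbr2*, chr9:116175364-116175613, minus strand: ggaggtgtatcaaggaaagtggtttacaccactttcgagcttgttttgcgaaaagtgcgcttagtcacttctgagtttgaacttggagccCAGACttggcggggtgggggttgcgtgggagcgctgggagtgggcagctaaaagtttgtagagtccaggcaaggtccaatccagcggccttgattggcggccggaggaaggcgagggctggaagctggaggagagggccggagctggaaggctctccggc
*Tgfb2*, chr1:186705990-186706239, minus strand: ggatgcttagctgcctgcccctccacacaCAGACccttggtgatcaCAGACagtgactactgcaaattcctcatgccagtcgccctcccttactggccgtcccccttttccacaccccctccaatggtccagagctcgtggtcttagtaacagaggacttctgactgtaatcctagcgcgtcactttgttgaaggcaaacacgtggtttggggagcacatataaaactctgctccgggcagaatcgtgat

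The *Eng* window holds 2 matches, with their leftmost bases at positions -214 and -127 from the start site, the second of them on the opposite strand. The *Tgfbr2* window holds 1 match at -160 and the *Tgfb2* window holds 2, at -221 and -204. Among 32851 promoter windows of the same length, 42.2% hold at least 1 match on either strand and 11.7% hold at least 2. A match describes the letters and does not show a bound site. Of the 8 genes, 5 (*Tgfb1*, *Tgfb2*, *Tgfbr1*, *Tgfbr2* and *Eng*) were matched to the RefSeq table, with 6 windows in all. The windows not shown hold 0 matches for *Tgfb1*, and 0 and 1 for *Tgfbr1*.

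The retina files hold 77676 nuclei, of which 20 carry a barcode that another library also has, and the brain files hold 31324, of which 4 do. Retina libraries hold 104 to 18862 nuclei and 90449 to 55803724 UMIs, and the brain libraries hold 49798325 (control) and 31033373 (CKO) UMIs. CKO replicate 4 stands apart with 104 nuclei, 65 of them labeled immune, and it enters only the immune and retinal ganglion cell (RGC) values, because a type needed at least 20 nuclei in a library. By that limit retinal astrocytes have 4 CKO libraries and no control. CKO replicates 8 to 11 were made with the v5.0 kit and all others with v4.0. The labels of both tissues were mostly carried by their own markers, with exceptions in each. In the retina, nuclei labeled astrocytes held the highest level of 2 of 5 markers of Müller glia. They also held that of 3 of 8 pericyte, 2 of 4 smooth muscle and 2 of 5 fibroblast markers. Rod bipolar cells held the highest level of 2 of 5 markers of cone bipolar cells. In the brain, nuclei labeled glia held the highest level of all 5 fibroblast markers (4319 CPM summed in control and 4139 in CKO nuclei). They are called nuclei labeled glia here. Brain nuclei labeled ECs held the highest level of all 9 EC markers. These nuclei also carried pericyte markers, summed to 8390 CPM in control and 7127 in CKO nuclei, so their levels are not those of ECs alone. Retinal ECs are not among the labels, and 13 nuclei of the CKO retinas and none of the control had UMIs of at least 4 of 9 EC markers. Because UMIs were counted over the whole gene, with or without the deleted exon, no level of *Tgfbr1* tests the deletion.

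In the retina, *Tgfb2* was the ligand of glia and bipolar cells. In Müller glia (MG), the radial glia that span the retina, *Tgfb2* was at 576 CPM in the control library, and in the 10 CKO libraries its lowest value was 506, its median 682 and its highest 939. Astrocytes, which lie along the superficial vessels, were at 692, 782, 740 and 764 CPM in CKO replicates 1, 5, 6 and 8. The libraries of these glial types overlap, and the difference between astrocytes and MG in the 4 shared libraries was smaller than its spread (-30.2 ± 96.5 CPM, SD). Over all libraries, rod bipolar cells (RBC) followed with 403 ± 52.5 CPM (SD, n = 11), below MG in 11 of 11 libraries. Cone bipolar cells (CBC) were next at 135 ± 15.7 CPM, below RBC in 11 of 11, and glycinergic amacrine cells (Gly AC) were at 86.2 ± 12.7 CPM. Horizontal cells (HC, 75.2 CPM), RGC (41.5), immune cells (34.8) and GABAergic amacrine cells (GABA AC, 31.3) came after them, with neighbors that did not differ beyond their spread. Cones and rods, the photoreceptors, were lowest at 9.52 ± 8.29 and 4.09 ± 4.40 CPM. By the number of UMIs rather than the level, MG held 33.8%, RBC 23.9% and CBC 21.3% of all retinal *Tgfb2* UMIs.

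The other ligands peaked in different cells. *Tgfb1*, the isoform of blood and immune cells, was at 17.5 CPM in the immune cells of the control (2 UMIs in 29 nuclei) and between 21.3 and 139 CPM in those of the 10 CKO libraries, with a median of 43.8. The mean of every other retinal type was at most 0.930 CPM, and immune cells, with 0.927% of retinal nuclei, held 53.5% of the *Tgfb1* UMIs. *Tgfb3* was highest in GABA AC, at 22.5 CPM in the control and between 12.7 and 31.7 in the CKO libraries (median 24.9). MG followed with 9.93 CPM in control and 4.29 to 15.4 in CKO libraries (median 12.7), below GABA AC in 10 of 11 libraries. GABA AC held 68.3% of all *Tgfb3* UMIs of the retina. *Tgfb3* lies over *Ttll5* on the opposite strand, and the sources used here do not give the strand used in counting, so reads of the pair cannot be told apart. The same holds for *Eng* and the protein-coding gene *Fpgs*, and for *Tgfb2*, *Tgfbr1*, *Tgfbr2*, *Tgfbr3* and *Acvrl1* with lncRNAs on the opposite strand.

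Both signaling receptors were highest in immune cells. *Tgfbr1*, the type I receptor, was at 943 CPM in immune cells of the control, and at 482, 722 and 988 CPM as the lowest, median and highest CKO value. Every library was far above every other type, of which CBC came next with 111 ± 10.0 CPM (SD, n = 11) and then rods with 92.7 ± 8.61. Astrocytes, MG and cones had means between 71.2 and 80.3 CPM and did not differ from their neighbors in the order beyond the spread, and the remaining types lay between 42.8 and 51.4. So *Tgfbr1* was present in each type, with UMIs in the whole retina that came mostly from the abundant rods (29.4%) and CBC (24.8%).

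*Tgfbr2*, the ligand-binding type II receptor, was restricted more sharply than *Tgfbr1*. Immune cells had 157 CPM in the control and 71.0, 128 and 179 CPM as the lowest, median and highest CKO values. Astrocytes had 26.6, 55.8, 18.1 and 37.3 CPM in CKO replicates 1, 5, 6 and 8, from 4, 15, 1 and 4 UMIs. MG had 6.62 CPM in control and 3.56 to 11.7 in CKO libraries. The order immune cells, astrocytes, MG held in every shared library, and all neuronal types were at 2.01 CPM or below. *Tgfbr3*, the coreceptor, was highest in inner retinal neurons. In Gly AC it was at 74.1 CPM in control and 60.5 to 81.5 in CKO libraries (median 63.8), in GABA AC at 44.7 in control and 34.2 to 66.0 in CKO libraries, and in RGC at 31.7 in the control and 0 to 46.4 in CKO libraries (median 40.3). Astrocytes (31.0 ± 22.9 CPM, SD, n = 4) and immune cells (25.3 ± 31.6, n = 11) came next and overlapped CBC (22.5 ± 3.52). Rods were at 0.840 ± 0.964 CPM.

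The EC receptors *Acvrl1* and *Eng* were scarce in the retina, where no EC label exists. *Eng* had no UMI in the 29 immune nuclei of the control, which allows up to 32.2 CPM (95% Poisson limit). In the CKO libraries its values in immune cells ran from 0 to 69.7 CPM with a median of 13.3. The highest of these is from 3 UMIs of CKO replicate 4. *Acvrl1* was likewise at 0 in the control and between 0 and 21.3 CPM in CKO immune cells. Cones (5.20 ± 3.64 CPM) and rods (2.41 ± 1.50) came next for *Acvrl1*, and these neighbors in the order did not differ beyond their spread, with cones over rods in 8 of 11 libraries.

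**Figure D1:**
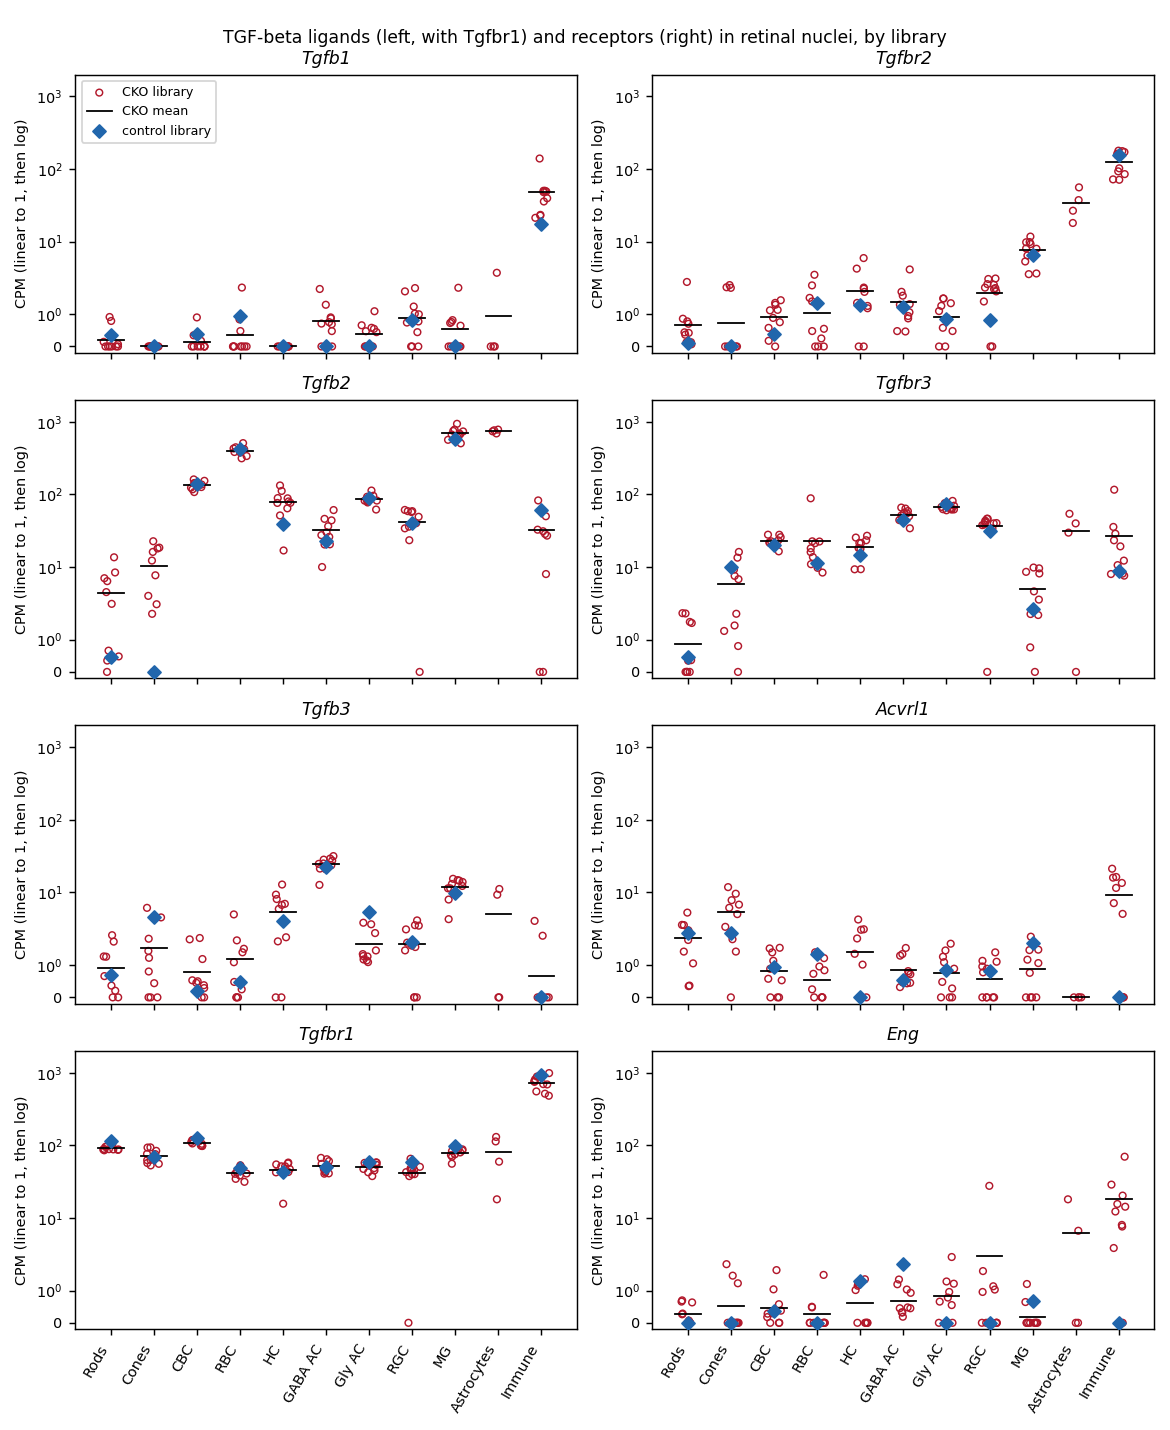
Level of each ligand and receptor gene in 11 retinal cell types, in CPM (linear to 1, then log). Open circles are CKO libraries with at least 20 nuclei of the type, bars their mean, and filled diamonds the single control library. *Tgfb2* is highest in MG and astrocytes, *Tgfb1*, *Tgfbr1* and *Tgfbr2* in immune cells, *Tgfb3* in GABA AC and *Tgfbr3* in Gly AC.

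The differences between types were tested in all libraries together, each type against the mean of the other types with the library as a block (edgeR quasi-likelihood test over 21685 genes, Benjamini-Hochberg adjusted p below 0.05 and at least 2-fold). Of 88 pairs of gene and type, 20 were called higher and 16 lower. Immune cells had 5 of the 8 genes higher, where 11.1% of all genes were called higher in that type: *Tgfb1* (log2 fold change 6.33), *Tgfbr2* (5.68), *Eng* (3.86), *Tgfbr1* (3.12) and *Acvrl1* (2.87). The calls of *Eng* and *Acvrl1* rest on 38 and 24 UMIs, with 0 in the control. Of the 9 EC markers, 4 were also highest in immune cells, and the part of EC transcripts in these calls was not tested. MG had 3 higher (12.9% of all genes), *Tgfb2* (3.57), *Tgfb3* (2.27) and *Tgfbr2* (1.63). Astrocytes had 2 (9.57% of all genes), *Tgfbr2* (4.03) and *Tgfb2* (3.20). So the immune label held a ligand and the receptor pair above the other types, and both glial labels held *Tgfb2* and *Tgfbr2*. These are sums over the nuclei of a label and do not show the genes in the same cell. The *Tgfbr2* call in astrocytes rests on 24 UMIs. Of 8 pericyte markers, 3 were highest in that label, and their part in the call was not tested.

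Among neurons, GABA AC had 2 higher, *Tgfb3* (3.55) and *Tgfbr3* (2.11), against 18.2% of all genes, and RGC had 2, *Tgfbr3* (1.61) and *Tgfb1* (1.03), also against 18.2%. A single gene was higher in RBC (*Tgfb2*, 2.88, with 8.18% of all genes called), in CBC (*Tgfb2*, 1.16, with 10.3%), in Gly AC (*Tgfbr3*, 2.49, with 14.8%) and in HC (*Tgfb3*, 1.02, with 8.68%). *Acvrl1* was the single gene called higher in cones (2.50, with 7.61% of all genes called) and in rods (1.47, with 12.8%). Rods had 5 of 8 genes lower, with *Tgfb2* (-4.50) and *Tgfbr3* (-4.34) furthest, where 20.1% of all genes were called lower. The call for *Tgfb1* in RGC rests on 17 UMIs in 12 libraries and was lost without CKO replicates 4 and 5 (adjusted p = 0.0728) and with v4.0 libraries alone (adjusted p = 0.0571, edgeR).

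The genes that store and activate latent ligand were counted in the same test. MG, the type with the most *Tgfb2* UMIs, had 6 of 13 tested genes of this list higher and none lower, where 12.9% of all genes were called higher in that type. They included *Itgb8* and *Itgav* (log2 fold changes 5.05 and 3.47), which encode the chains of an integrin that activates latent TGF-beta, and *Ltbp1* (4.91), which tethers latent ligand to the matrix. Astrocytes had 8 of 13 higher (9.57% of all genes), among them *Bgn* (7.99), a matrix proteoglycan, and *Itgb8* (4.50). Pericyte markers summed to 544 CPM in the CKO nuclei labeled astrocytes and to 83.5 CPM in CKO MG, with 2 and 1 of the 8 markers at 0, and their part in the *Bgn* value was not tested. Immune cells had 3 higher (11.1% of all genes) and 2 lower (3.07% of all genes), with *Nrros* (4.64), which holds latent TGFB1 at the microglial surface, and *Thbs1* (3.36), an activator. Gly AC had 5 of 13 higher (14.8% of all genes), including *Ltbp1* (4.45) and *Ltbp4* (2.87), and rods had 8 of 13 lower (20.1% of all genes) and none higher.

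Of 11 genes for SMADs and their co-repressors, 6 were higher in immune cells (11.1% of all genes) and 5 in astrocytes (9.57%). *Tgif1*, a co-repressor of SMAD2 and SMAD3, was at log2 fold changes of 4.50 in immune cells and 3.84 in astrocytes. The inhibitory *Smad6* was higher in astrocytes (4.27) and MG (3.70). RBC had *Smad3* higher (3.19), beside their high *Tgfb2*, and 5 of 11 genes of the list lower, where 8.67% of all genes were called lower. Of the 10 other receptors of the superfamily, *Bmpr1b*, a type I BMP receptor, was the furthest apart, at 6.15 in MG and 4.46 in astrocytes.

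The retinal CKO libraries were then compared with the control within each type (edgeR quasi-likelihood test, kit as covariate). The 8 genes gave 38 tested pairs of gene and type with at least 50 UMIs, and 0 were called, with 3 at an unadjusted p below 0.05 and a smallest adjusted p of 0.879. DESeq2 also called 0 and had 3 at an unadjusted p below 0.05. Calls were as rare among all genes, with 0% in CBC, HC, immune cells, RBC, RGC and rods, 0.00963% in cones, 0.00638% in GABA AC, 0.00677% in Gly AC and 0.00782% in MG. With 1 control library the fit assumes that it varies like the CKO libraries. The median absolute log2 fold change of the 38 pairs was 0.29, and the median over all genes lay between 0.18 and 0.56 by type.

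*Tgfbr1* lay below the control in most types, which all share the 1 control library. In rods the control was at 113.7 CPM and the 10 CKO libraries were at 85.4 to 102 (median 88.3). In CBC the control was at 128 CPM and the CKO libraries at 97.8 to 120 (median 109). In both types all 10 CKO libraries lie below the control, and the two-sided exact permutation test gives p = 0.0909, the smallest p that 11 libraries allow. MG (97.3 CPM in the control, 55.8 to 89.7 in the CKO libraries) and Gly AC (59.4 against 37.7 to 58.3) also do not overlap, with exact p = 0.182 and 0.273. In cones, GABA AC and HC the CKO libraries lie on both sides of the control. The same holds for RBC, RGC and immune cells, with 2 of 10, 1 of 11 and 1 of 10 CKO libraries above it. Fitted log2 fold changes were below 0 in 9 of 10 types, from -0.50 in RGC to 0.07 in cones with a median of -0.29, and none passed the test (adjusted p at least 0.879). In batch 1 alone, the control with CKO replicates 1 to 3, 8 of 10 were below 0. The null *Tgfbr1* allele is carried by every retinal cell of the CKO mice, and its part in these values was not tested.

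Ligand levels gave no call either. *Tgfb2* in MG had a log2 fold change of 0.22, with 8 of 10 CKO libraries above the control and 2 below. *Tgfb1* in immune cells was above the control in 10 of 10 CKO libraries (exact p = 0.182), but the control value rests on 2 UMIs. In the control, 24 of its 29 immune nuclei had UMIs of microglial markers without those of monocytes, macrophages or lymphocytes and 5 had both. The CKO libraries had 1 to 47 nuclei with the other markers alone, and the control had none. The part of this mixture in the *Tgfb1* level was not tested. *Tgfb3* in Gly AC was at 5.37 CPM in the control (19 UMIs) and 1.10 to 3.83 in the CKO libraries (exact p = 0.0909), with a log2 fold change of -1.71 ± 0.56 (SE) and an adjusted p of 1.00 (edgeR). *Tgfb2* in cones had no UMI in the control, which allows up to 3.40 CPM (95% Poisson limit). It was at 0 to 22.7 CPM in the CKO libraries, so its fitted value is not a fold change that can be read.

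Some low values differed between CKO libraries of the 2 kits, and kit and library cannot be told apart. The v5.0 libraries are all of batch 3, with medians of 2717 to 4041 UMIs per nucleus. CKO replicates 6 and 7, of the v4.0 kit, share that batch and had medians of 1183 and 1412. The parts of kit, batch and depth were not tested. In rods, *Tgfb2* was at 6.39 to 13.6 CPM in the 4 CKO libraries of the v5.0 kit and at 0 to 4.52 in the 6 of the v4.0 kit. *Tgfb3* and *Tgfbr3* in rods did not overlap between the kits either, with 1.30 to 2.58 against 0 to 0.695 and 1.70 to 2.32 against 0 to 0.364 CPM. *Tgfbr1* in rods overlapped, at 87.6 to 95.2 and 85.4 to 102 CPM. The 35 pathway genes outside the 8 gave 216 tested pairs of 30 genes, of which 0 were called and 9 had an unadjusted p below 0.05 (edgeR).

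**Figure D2:**
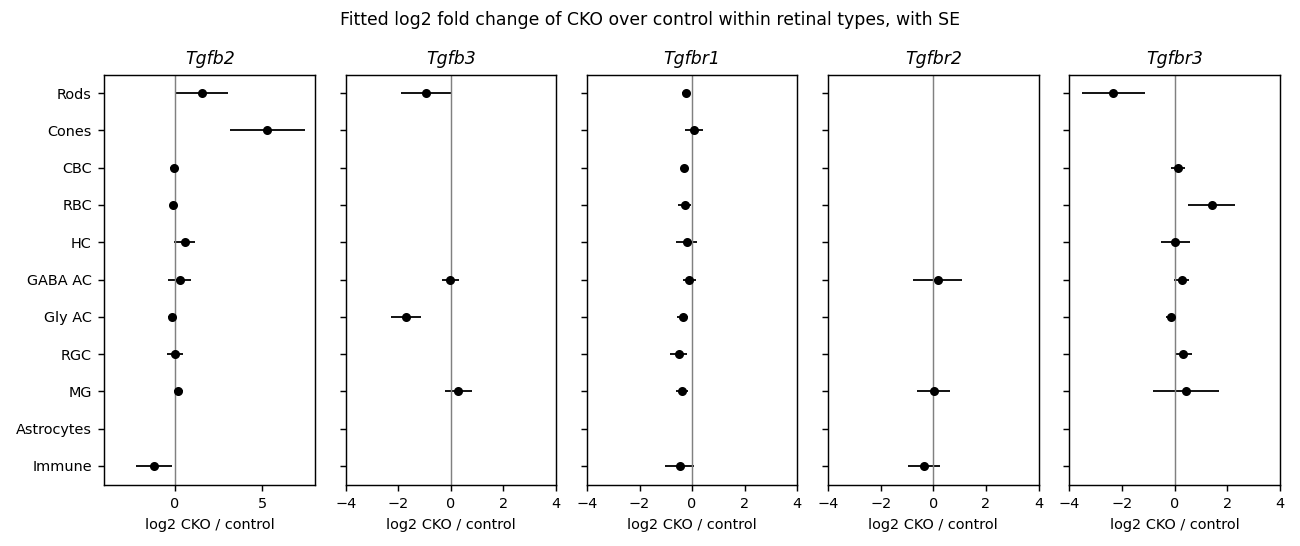
Fitted log2 fold change of CKO over control in each retinal type for the genes with at least 50 UMIs there, with bars of 1 SE. *Tgfbr1* lies left of 0 in 9 of 10 types, none of the values passes the test, and the value of *Tgfb2* in cones stands against a control of 0 UMIs.

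In the brain the fragments hold ECs themselves, 2475 in the control library and 2944 in that of the CKO. Of 21 labels, 18 had at least 100 nuclei in both libraries, and ECs had the highest control level among these for 4 genes. *Eng* was at 775 CPM in ECs, ahead of vascular smooth muscle cells (vSMCs) at 339. *Tgfbr2* was at 396 CPM in ECs, ahead of nuclei labeled CP_6 (which carry markers of ciliated ependymal cells) at 230. *Acvrl1* was at 245 CPM in ECs and 158 in vSMCs, and *Tgfb1* at 32.1 and 19.4. Control nuclei labeled vSMCs also carried EC markers (4415 CPM summed, against 10914 in ECs) and pericyte markers (6583 CPM). The part of these in the vSMC values was not tested. Outside these 18 labels, control microglia had a higher *Tgfb1* level than ECs, at 87.6 CPM (7 UMIs, 35.2 to 180 by counting error). Control pericytes were at 57.45 CPM of *Tgfb1* (7 UMIs), and their counting range of 23.1 to 118 includes the level of ECs. Pooled over both libraries, ECs held 91.3% of the UMIs of *Eng*, 89.2% of those of *Acvrl1*, 82.8% of those of *Tgfb1* and 75.5% of those of *Tgfbr2*, with 15.7% of all UMIs. Summed over its nuclei, the EC label thus held ligand and both receptor branches.

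The other 4 genes peaked elsewhere. *Tgfb2* was highest in nuclei labeled CP_8, which carry choroid plexus markers, at 439 CPM in the control, followed by vSMCs at 271 and ECs at 224. *Tgfb3* was highest in vSMCs at 93.7 CPM and in nuclei labeled glia at 57.1. *Tgfbr3* was highest in nuclei labeled glia at 1007 CPM, with the neuronal label Glut_5 at 519. *Tgfbr1* was at 280 CPM in nuclei labeled glia and at 69.1 in ECs. Microglia, left out of the order with 11 nuclei in the CKO library, were at 2865 CPM of *Tgfbr1* (229 UMIs) and 1126 of *Tgfbr2* (90 UMIs) in the control library, above all labels in the order, and at 10 UMIs and 1 UMI in the CKO library. The same labels were highest for all 8 genes with nuclei of at least 1000 UMIs and with each nucleus weighted equally.

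**Figure D3:**
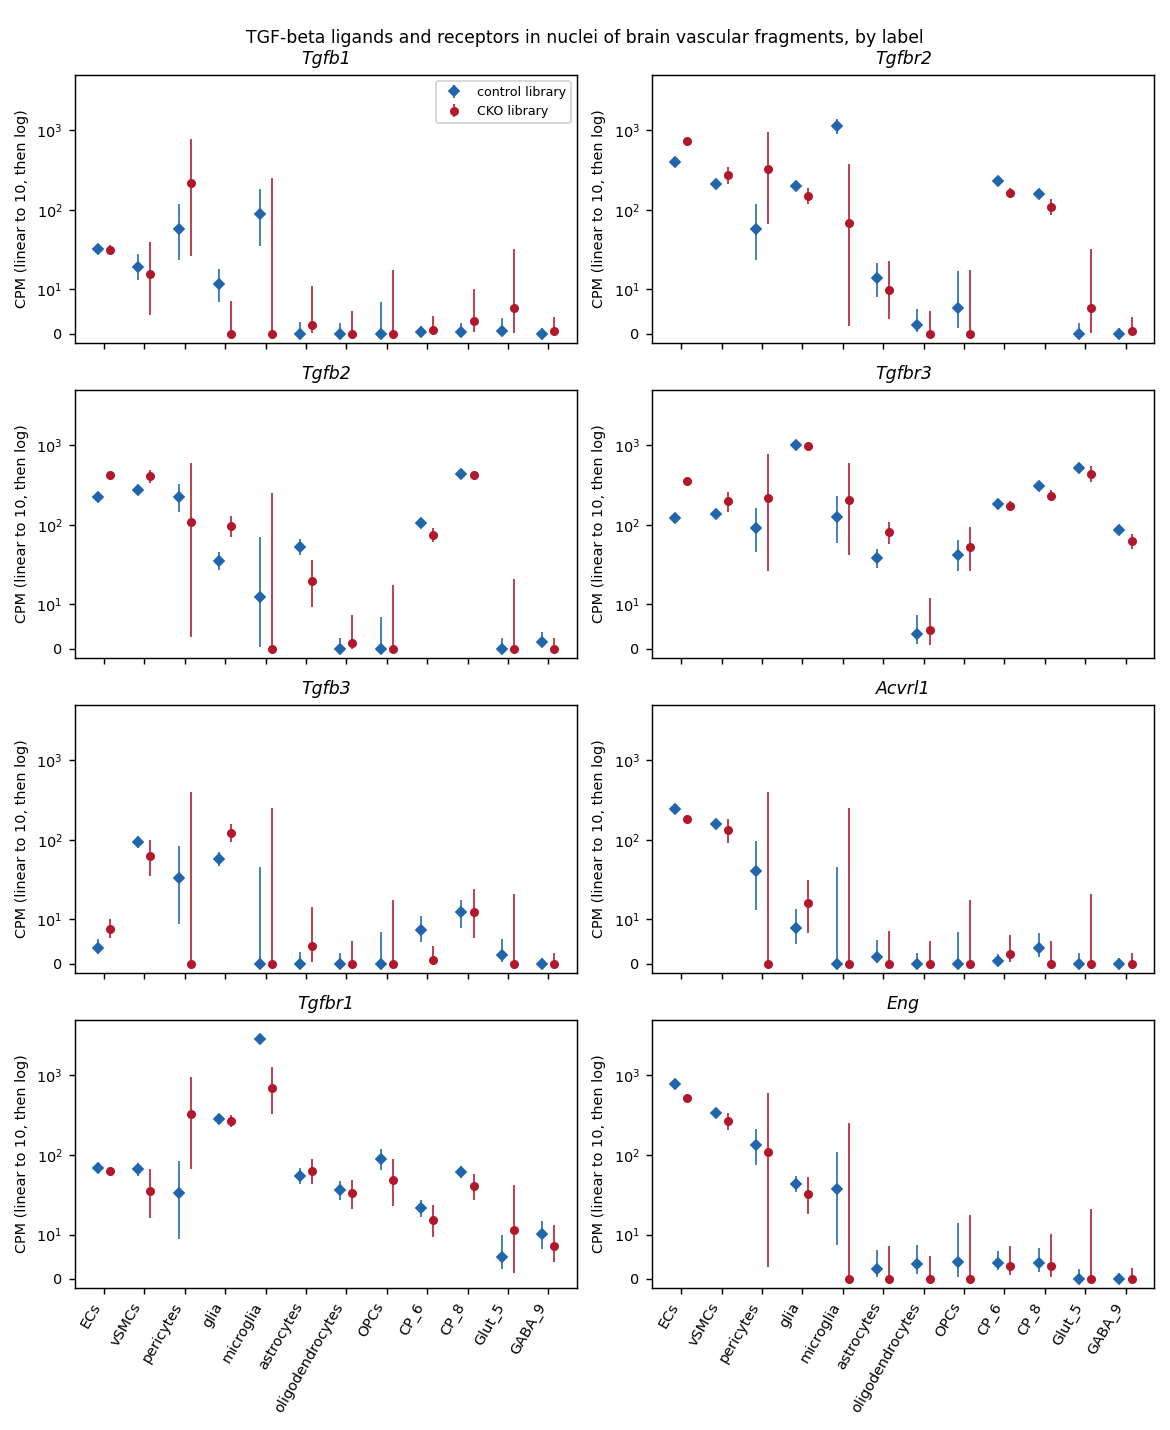
Level of each gene in 12 labels of the brain vascular fragments, in CPM (linear to 10, then log), with diamonds for the control and circles for the CKO library and bars for the 95% Poisson interval, which covers counting error only. *Eng*, *Acvrl1*, *Tgfb1* and *Tgfbr2* lie highest in ECs among labels with at least 100 nuclei in both libraries, and intervals of pericytes and microglia in the CKO library are wide.

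ECs are the cells in which Cre is active, and the 8 genes split there. With 1 library per genotype no test was made, intervals are 95% conditional binomial and cover counting error only, and each ratio compares these 2 libraries. The coreceptor *Tgfbr3* was at 120 CPM in control and 351 in CKO nuclei, a ratio of 2.92 (2.68 to 3.18). *Tgfb2* went from 224 to 426 CPM, a ratio of 1.90 (1.78 to 2.03), and *Tgfbr2* from 396 to 742, a ratio of 1.87 (1.78 to 1.97). *Tgfb3* was scarce, with 21 UMIs in control and 54 in CKO nuclei, a ratio of 2.18 (1.29 to 3.80). These 4 genes, 2 ligands and the receptors that bind ligand directly, were higher in the CKO library.

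The receptors of the BMP9 and BMP10 branch were lower. *Eng*, which overlaps *Fpgs* on the opposite strand, was at 775 CPM in control and 515 in CKO nuclei, a ratio of 0.665 (0.636 to 0.695), and *Acvrl1* at 245 and 182, a ratio of 0.741 (0.686 to 0.800). *Tgfbr1*, the targeted gene, was at 69.1 and 62.9 CPM, a ratio of 0.910 (0.792 to 1.05), and *Tgfb1* at 32.1 and 31.2, a ratio of 0.974 (0.797 to 1.19). For both, the interval includes equal levels. Past 2-fold in either direction were 2 of the 8 genes, *Tgfbr3* and *Tgfb3*, where 17.0% of all genes with at least 20 UMIs were. The median log2 ratio of the 8 genes was 0.43 and that of all genes in ECs 0.13, so all ratios are read against a shifted middle.

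Among 35 other genes of the pathway, 28 had at least 20 UMIs in ECs, with 3 past 2-fold higher and 4 past 2-fold lower. Of all genes in ECs, 11.2% were past 2-fold higher and 5.79% past 2-fold lower, so the share of higher pathway genes was near that of all genes. The median log2 ratio of the pathway genes was -0.10. The higher ones hold latent ligand, *Ltbp1* with a ratio of 4.64 (35 and 192 UMIs), *Nrros* with 2.99 and *Lrrc32* with 2.68. LRRC32 (GARP) and NRROS anchor latent TGFB1 at the cell surface. The lower ones included *Skil* at 0.185, which encodes a SMAD co-repressor, and *Smad7* at 0.400, which encodes an inhibitory SMAD. Both are known transcriptional targets of the pathway. *Dcn* (0.484), a matrix proteoglycan that binds TGF-beta, and *Itgb8* (0.282, from 15 and 5 UMIs) were the others. *Ltbp4* (0.579, 0.549 to 0.611) and *Smad6* (0.609) were lower without passing 2-fold, and *Smad1*, a SMAD of the BMP branch, was at 1.61 (1.48 to 1.75).

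**Figure D4:**
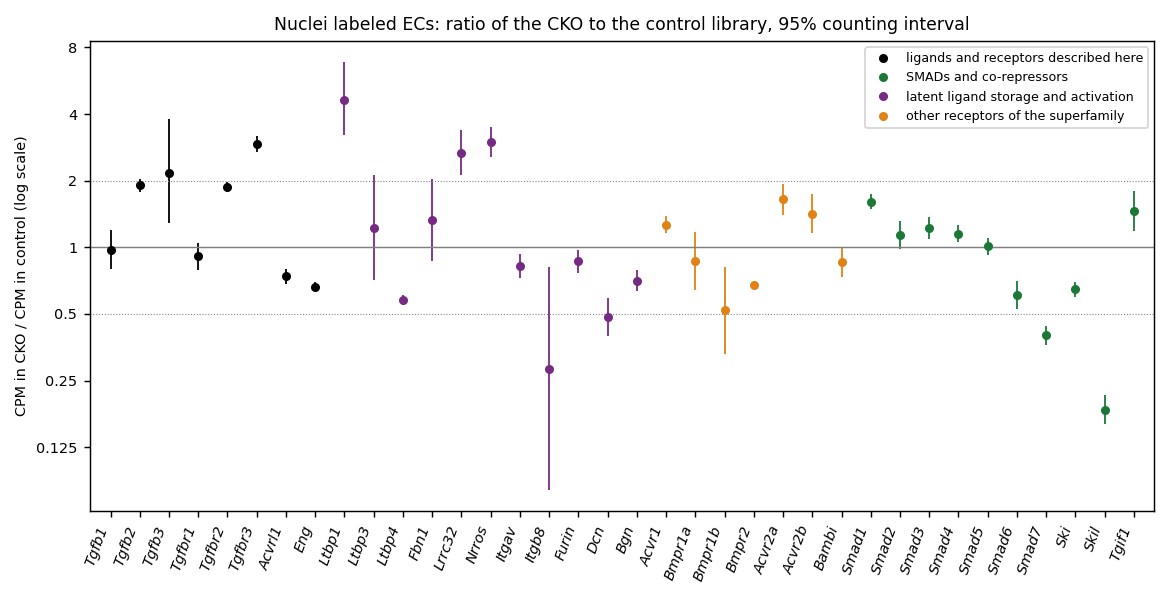
Ratio of the CKO to the control library in nuclei labeled ECs for the 8 ligand and receptor genes and the other pathway genes with at least 20 UMIs (log axis), with 95% counting intervals and dotted lines at 2-fold. *Ltbp1*, *Nrros*, *Tgfbr3* and *Lrrc32* stand highest and *Skil*, *Itgb8* and *Smad7* lowest.

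Nuclei labeled ECs also carried pericyte transcripts. The 8 pericyte markers summed to 8390 CPM in control and 7127 in CKO nuclei (ratio 0.849), and the 9 EC markers to 10914 and 9175 (ratio 0.841), with single EC markers from 0.689 (*Flt1*) to 1.50 (*Cdh5*). Among nuclei with at least 5 UMIs of these markers, 756 in control and 438 in CKO nuclei had under 25% of them from pericyte genes, and of all nuclei 309 and 384 lay within 5 points of that limit. This split was chosen after the values were seen. In these nuclei *Tgfbr3* had a ratio of 4.13 (103 and 343 UMIs), *Tgfbr2* of 1.45 (1.28 to 1.64) and *Tgfb2* of 1.38 (1.16 to 1.64). *Eng* was at 0.559 (0.494 to 0.632) and *Acvrl1* at 0.566 (0.455 to 0.701). *Skil* was at 0.0598, from 166 and 8 UMIs, and *Smad7* at 0.176. All of these ratios kept their side of 1.

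The 363 control and 133 CKO nuclei with no pericyte UMI at all gave *Tgfbr3* 3.84 (2.53 to 5.85), *Tgfbr2* 1.83 (1.39 to 2.38), *Eng* 0.690 (0.504 to 0.928) and *Acvrl1* 0.323 (0.143 to 0.644). *Tgfb2* turned, with 75 and 15 UMIs and a ratio of 0.589 (0.314 to 1.03), whose interval includes equal levels. *Tgfb1*, with 10 UMIs in each library, was at 2.95 (1.10 to 7.89). The higher *Tgfb2* of the CKO library was thus not seen in nuclei without pericyte UMIs. These nuclei were also shallow, with 224930 UMIs in control and 76346 in CKO nuclei. All 2475 and 2944 nuclei labeled ECs held 5801552 and 6851854 UMIs. The parts of pericyte RNA and of depth in the *Tgfb2* ratio were not tested.

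**Figure D5:**
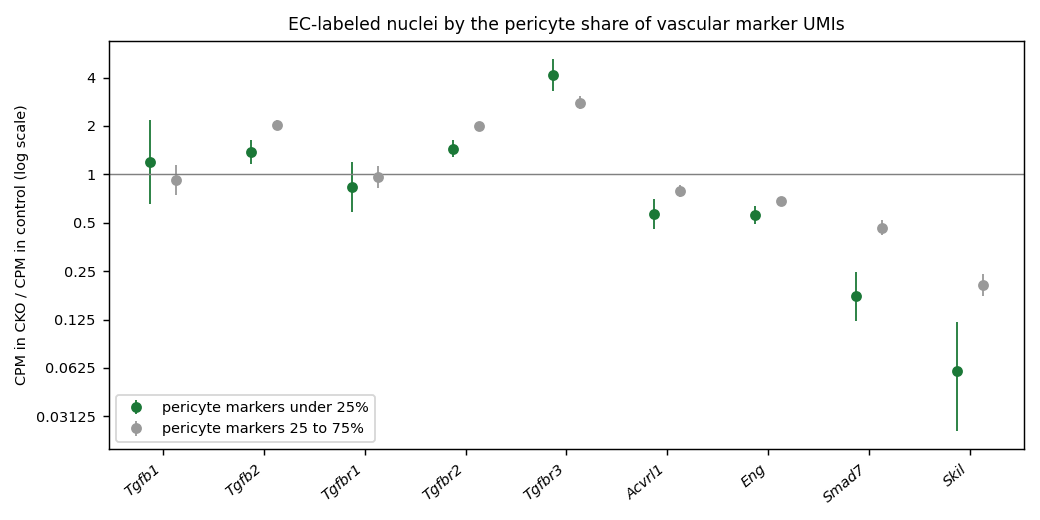
Ratio of the CKO to the control library in nuclei labeled ECs (log axis, 95% counting intervals), for nuclei with under 25% (green) and 25 to 75% (gray) of vascular marker UMIs from pericyte genes. *Tgfbr3*, *Tgfbr2* and *Tgfb2* lie above 1 and *Eng*, *Acvrl1*, *Smad7* and *Skil* below 1 in both sets.

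Outside ECs the count of genes past 2-fold differed between labels. In vSMCs 0 of 8 were past 2-fold, where 13.5% of all genes were. *Tgfb2* there was at 271 and 406 CPM, a ratio of 1.50 (419 and 105 UMIs), beside fibroblast markers whose sum had a ratio of 2.01, and the part of those in it was not tested. In nuclei labeled glia, 3 of 8 were past 2-fold, where 21.4% of all genes were by the same rule. *Tgfb2* was at 35.2 and 96.2 CPM (ratio 2.73) and *Tgfb3* at 57.1 and 122 CPM (2.14). *Tgfb1* counts by this rule with 20 UMIs in the control (11.5 CPM) and 0 in the CKO library. The 0 allows up to 6.01 CPM, so a 2-fold difference of *Tgfb1* is not shown. EC markers in these nuclei summed to 802 and 495 CPM (ratio 0.617, 0.537 to 0.707) and pericyte markers to 1187 and 791 (ratio 0.667), and their part in the *Tgfb1* value was not tested. CP_6 had 1 of 5 genes past 2-fold (9.24% of all genes), *Tgfb3* with 25 and 1 UMIs, and CP_8 had 0 of 5 (14.7%). Brain astrocytes had 2 of 4 (24.1%), *Tgfb2* with 72 and 10 UMIs (ratio 0.374) and *Tgfbr3* with 52 and 41 (ratio 2.13). Microglia, with 11 CKO nuclei, had ratios of 0.238 (0.113 to 0.447) for *Tgfbr1* and 0.0607 (0.00152 to 0.347) for *Tgfbr2*, in a label where 71.1% of all genes were past 2-fold. Pericytes, with 22 CKO nuclei, had *Tgfb2* at 27 and 1 UMIs, a ratio of 0.490 whose interval (0.0120 to 2.97) includes equal levels, where 54.2% of all genes were past 2-fold.

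In neurons *Tgfbr3* was lower in the CKO library past 2-fold in 5 of the 9 labels with at least 20 UMIs, Glut_0, Glut_1, Glut_11, Glut_17 and Glut_19. In Glut_1 it was at 45.3 CPM in control and 8.14 in CKO nuclei (314 and 36 UMIs, ratio 0.180), and in Glut_0 at 19.7 and 6.27 CPM (229 and 52 UMIs, ratio 0.318). The other 3 had ratios of 0.218 to 0.326, and Glut_5, the label with the most *Tgfbr3*, was at 0.849 (827 and 77 UMIs). Of all genes, those lower past 2-fold were 10.6% in Glut_0, 11.9% in Glut_1, 12.2% in Glut_11, 11.5% in Glut_17 and 4.44% in Glut_19, and 5.78% in GABA_9, 5.91% in Glut_14, 13.5% in Glut_20, 4.38% in Glut_21 and 17.8% in Glut_5. *Tgfbr1* was lower past 2-fold in 2 of 5 labels (Glut_1, 43 and 10 UMIs, and Glut_14, 20 and 4) and higher in Glut_21 (16 and 37). *Tgfb2* was lower in 2 of 3, Glut_1 (25 and 1) and Glut_21 (56 and 4). *Tgfbr3* was thus on opposite sides of 1 in these neurons and in ECs, a contrast that was not tested.

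Genes with the most similar pattern over labels were listed by the Pearson correlation of log2(CPM + 1), over 18 brain labels that share 2 libraries and, for genes reaching 20 CPM, over 11 retinal types. In the brain *Eng* was closest to *Fgd5*, *Egfl7* and *Mxra7* (r of 0.993 to 0.991), and *Acvrl1* to *Gvin1* (0.994) and *Dll4* (0.993). *Tgfbr2* was closest to *Ocln* (0.983), *Tgfb1* to *Acer2* (0.975), *Tgfb2* to *Mcee* (0.974), *Tgfb3* to *Thbs2* (0.958), *Tgfbr1* to *Rin2* (0.958) and *Tgfbr3* to *Gm26621* (0.890). In the retina the closest genes were *Nlrp1b* for *Tgfb1* (0.994), *Golm1* for *Tgfbr2* (0.993), *Morc3* for *Tgfbr1* (0.965), *Hmga2* for *Tgfb3* (0.939) and *Nt5c2* for *Tgfbr3* (0.935). These describe the labels and share their libraries, so no p is given.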

How the data were processed

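Per the study's methods and the file headers, the authors deposited whole UMI counts per gene and nucleus with a cell type label, after alignment with PIPseeker to GRCm39 (the labels name mm10), background removal with CellBender, doublet removal with SOLO and manual curation, which included CKO replicates 4 and 5. No further filter was set on nuclei. Counts were summed per label and library, and libraries were the replicates. In the retina, types with at least 20 nuclei and genes with at least 50 UMIs were tested on all genes with edgeR 4.0.16 (TMM scaling, quasi-likelihood test, R 4.3.3), with DESeq2 1.42.0 as an alternative. p-values measure the spread between libraries. In the brain, ratios have exact conditional binomial intervals. The scripts were tested on simulated data. Other steps used Python 3.11.15, numpy 2.4.6, pandas 2.3.3, scipy 1.17.1 and matplotlib 3.10.9.

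The 8 genes, the pathway list and the markers were chosen with earlier results of these data known. Named genes are the 8, pathway genes counted as a list and named where past the test or the 2-fold size rule, and for each of the 8 the 3 genes of highest correlation, of which some are given and some are not reported here. *Ltbp4*, *Smad6* and *Smad1* in ECs fall outside that rule and were named after their values were seen. Alternatives covered scaling, DESeq2, gene filters, batch, kit, the curated libraries, deeper nuclei, nucleus weighting and pericyte transcripts in ECs. Log2 ratios over all brain genes used 0.5 added UMIs. The labels' processing notes also name Seurat, whose normalized values were not used.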

Additional observations from a re-analysis of the deposited data

Results flagged for a closer look

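Among 28 groups of retinal CKO libraries with a mean of at least 20 CPM, 4 had a library that lay apart from the others by Dixon's test, which chance does in about 1 of 20 groups. *Tgfbr3* in RBC was at 88.5 CPM in CKO replicate 6, with 22.6 as the next highest, and these 76 UMIs lie in 58 of 388 nuclei, at most 3 in a nucleus. In the same library *Tgfbr3* was at 62.6 CPM in Gly AC and 66.0 in GABA AC, within the range of the other libraries. *Tgfbr1* in HC was at 15.7 CPM in CKO replicate 5 (13 UMIs, 88 nuclei), with 41.9 as the next lowest, and *Tgfb2* in the same HC nuclei was also at its lowest, 16.9 CPM. The other 2 values come from CKO replicate 4, where *Tgfb1* in immune cells was at 139 CPM (6 UMIs) and *Tgfbr3* in immune cells at 116 CPM (5 UMIs in 2 nuclei). Outside the comparisons, the 2 MG nuclei of CKO replicate 4 held 10 *Tgfbr3* UMIs of 705, or 14184 CPM, and 9 of the 10 were in a single nucleus.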

How the results depend on the processing

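Within retinal types, 0 pairs of gene and type were called between CKO and control under all 8 alternatives, which include DESeq2. Of the values computed for named pairs, 54 of 54 kept their direction. Over all genes DESeq2 called up to 193 in a type (CBC), where edgeR called at most 1. Of 80 values of a type against the others, 75 kept their call. Without TMM scaling, *Tgfb2* in CBC (log2 fold change 0.98), *Tgfb3* in HC (0.99) and *Tgfb1* in RGC (0.98) dropped below 2-fold. In brain ECs, the count of 2 genes past 2-fold became 1 with genes of at least 100 UMIs and 1 in nuclei with under 25% pericyte markers, since *Tgfb3* has few UMIs. It became 3 in nuclei with no pericyte UMI, *Tgfbr3*, *Acvrl1* and *Tgfb1*. Of 45 ratios in ECs under alternatives, 25 lay inside the counting interval of the reported ratio. With each nucleus weighted equally *Tgfbr3* was at 4.87 and *Tgfbr1* at 0.715. With TMM scaling *Tgfbr3* was at 2.72 and *Tgfb2* at 1.77. No paired analysis was possible because the groups share fewer than 2 replicate numbers. The single control of each tissue limits every genotype comparison, and low values rest on few UMIs.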
